A study of Mus musculus with 2 samples.

Results

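The 10 genes described here encode the surfactant proteins and the machinery with which alveolar type II (AT2) cells process, load and export surfactant lipid. They are Sftpa1, Sftpb, Sftpc, Sftpd, Napsa, Lamp3, Abca3, Slc34a2, Lpcat1 and Etv5, taken by symbol from the 27998 genes of the deposited tables, and each symbol matched 1 row. They were measured by single-cell RNA sequencing of mouse lung in 2 libraries, 1 per treatment. In the navitoclax library the C57Bl6 mice had bleomycin on day 1 and navitoclax (ABT-263), an inhibitor of anti-apoptotic BCL-2 family proteins, from day 15 to day 20. In the vehicle library they had bleomycin on day 1 and vehicle, for which the labels give no separate days. Bleomycin injures the lung and leads to fibrosis, and all of these mice received it, so no uninjured lung enters the comparison. Lungs were taken 21 days after injury, and sorted epithelial and stromal cells were mixed in equal parts, so the share of epithelium among all cells was set by that mixing. How many mice went into each library is not stated in the labels. With 1 library per treatment there is no replicate and no test between treatments, and every interval below is a 95% interval that covers counting error only.

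Pulmonary surfactant is a film of phospholipid and protein that keeps alveoli from collapsing. AT2 cells make the lipid, pack it into lysosome-related storage organelles called lamellar bodies, and release it by exocytosis. Sftpb and Sftpc encode small hydrophobic proteins that are cleaved from larger precursors and help the lipid spread. Sftpa1 and Sftpd encode large collagen-like lectins (collectins) that bind microbes and take part in surfactant turnover, and airway secretory cells of the lung are known to make them too. During repair, AT2 cells pass through a transitional state marked by keratin genes such as Krt8 on the way to flat type I (AT1) cells.

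The navitoclax library held 8064 barcodes with 98517048 UMIs (unique molecular identifiers, each counting 1 captured transcript) and a median of 9920.5, and the vehicle library held 8784 barcodes with 97958947 UMIs and a median of 9125. After filters on genes and mitochondrial UMIs and removal of called doublets, 6240 navitoclax and 7174 vehicle cells remained. The libraries shared 20 barcodes, 13 of them after filtering. Cells were clustered with the 10 genes left out of the clustering genes, and clusters were named from marker genes that are not among the 10. The 10 genes still counted in the UMI totals used for scaling. They could also be among the leading genes of a cluster, which weighed in its naming. The classes are therefore not fully independent of their values. AT2-like cells numbered 1588 in the navitoclax library and 2390 in the vehicle library, transitional-like cells 214 and 168, ciliated-like cells 402 and 355, and fibroblasts 2162 and 2641. All 8 AT2 markers, among them the lysozyme gene Lyz2 and the chemokine gene Cxcl15, were at 20 CPM (a gene's UMIs scaled to the UMI total of its class) or more in the AT2-like cells of both libraries. No fibroblast or macrophage marker reached that level there, and the defining macrophage and fibroblast lists summed to 5.32 and 52.3 CPM in navitoclax AT2-like cells, against 6.52 and 39.8 CPM in vehicle AT2-like cells. Markers of other epithelial classes did reach it. In both libraries 5 of 12 AT1, 3 of 9 ciliated and 9 of 12 transitional markers were at that level. Of 8 airway secretory markers, 3 were in the navitoclax and 4 in the vehicle library. The AT1 list summed to 1950 CPM in navitoclax and 2012 CPM in vehicle AT2-like cells, and the secretory list to 2513 and 3408 CPM.

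Sftpc was the gene with the most UMIs of the 10 in AT2-like cells, with 234373 CPM (interval 234206 to 234541) in the navitoclax library and 224131 CPM (223989 to 224273) in the vehicle library. It lies on chromosome 14 at chr14:70520949-70524081 (GRCm38, minus strand). The median AT2-like cell gave 23.7% of its UMIs to it in the navitoclax library and 22.5% in the vehicle library. The 5th and 95th percentiles of that share were 15.1% and 28.2% in navitoclax AT2-like cells, against 13.2% and 27.5% in vehicle AT2-like cells. The distributions of the 2 libraries overlapped almost throughout.

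Sftpb (chr6:72304610-72314371, plus strand) had 10669 CPM in navitoclax AT2-like cells and 10639 CPM in vehicle AT2-like cells. Sftpa1 (chr14:41131782-41136452, plus strand) had 29335 CPM in navitoclax and 30575 CPM in vehicle AT2-like cells. The other collectin gene, Sftpd (chr14:41172214-41185149, minus strand), lies close to Sftpa1 and had 5108 CPM in navitoclax and 5248 CPM in vehicle AT2-like cells. In each of these genes the levels of the libraries lay within 5% of each other. All coordinates of genes are those of GENCODE M21 on GRCm38. The counts come from a kit that tags 1 end of each transcript and were not divided by gene length, so levels of different genes are compared here only as UMIs.

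The promoters of Sftpb and Sftpa1 are shown because they are the members whose promoter window held the core motif of NKX2-1, the lung lineage factor known to drive surfactant genes. The Lamp3 promoter is shown beside them as a lamellar body gene without that motif but with one of FOXA factors, which also act in lung epithelium. They are RefSeq windows of 250 bases before the RefSeq start on GRCm38.p6, at chr6:72304360-72304609 (plus strand) for Sftpb, chr14:41131538-41131787 (plus strand) for Sftpa1 and chr16:19706366-19706615 (minus strand) for Lamp3. Capitals mark CTCAAG (NKX2-1), TTNNGNAA (C/EBP) and TGTTTAC (FOXA) on either strand.
Sftpb: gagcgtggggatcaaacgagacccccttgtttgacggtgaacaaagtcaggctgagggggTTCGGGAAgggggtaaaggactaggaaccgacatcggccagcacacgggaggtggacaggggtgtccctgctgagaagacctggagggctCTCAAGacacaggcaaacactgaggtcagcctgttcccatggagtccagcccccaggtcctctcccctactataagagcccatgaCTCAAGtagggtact
Sftpa1: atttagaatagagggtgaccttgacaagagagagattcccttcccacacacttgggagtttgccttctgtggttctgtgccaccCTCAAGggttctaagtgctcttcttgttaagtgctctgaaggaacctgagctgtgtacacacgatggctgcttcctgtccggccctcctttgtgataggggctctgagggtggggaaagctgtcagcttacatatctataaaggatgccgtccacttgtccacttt
Lamp3: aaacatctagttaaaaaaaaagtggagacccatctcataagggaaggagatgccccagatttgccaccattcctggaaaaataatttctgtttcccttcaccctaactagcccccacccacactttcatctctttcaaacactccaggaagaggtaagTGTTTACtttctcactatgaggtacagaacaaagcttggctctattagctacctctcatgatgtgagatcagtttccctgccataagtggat
CTCAAG occurred 2 times in the Sftpb window and 1 time in the Sftpa1 window, so that 2 of the 7 members with an entry in the promoter table held it, against 13.3% of 32851 promoters. Sftpc, Sftpd and Napsa had no entry. The NKX2-1 form TCAAGTG, which can overlap CTCAAG, was in 0 of the 7, and in 2.68% of all promoters. TTNNGNAA was in 2 of 7 (Sftpb and Slc34a2), against 36.8% of all, and TGTTTAC in 2 of 7 (Lamp3 and Etv5, which has 2 entries), against 3.17% of all. The ETS motif GGAAGT was in 1 of 7 (Etv5), against 19.7% of all. These are matches of letters in a short window and do not show binding.

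The genes of precursor processing and lamellar bodies were detected in nearly every AT2-like cell. Napsa (chr7:44572380-44586862, plus strand), an aspartic protease that helps cleave surfactant protein precursors, had 3356 CPM in navitoclax and 3153 CPM in vehicle AT2-like cells. Lamp3 (chr16:19653378-19706375, minus strand), a membrane protein of lamellar bodies, had 1593 CPM in navitoclax and 1523 CPM in vehicle AT2-like cells. Abca3 (chr17:24351950-24410201, plus strand), the transporter that pumps phospholipid into the lamellar body, had 875 CPM in navitoclax and 861 CPM in vehicle AT2-like cells. At least 1 UMI of each of these 3 genes was seen in over 99% of AT2-like cells of both libraries.

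Slc34a2 (chr5:53038081-53071664, plus strand), a sodium-phosphate cotransporter of the AT2 apical membrane that recovers phosphate released from surfactant phospholipid, had 4857 CPM in navitoclax and 5190 CPM in vehicle AT2-like cells. Lpcat1 (chr13:73467197-73516422, plus strand), the acyltransferase that makes the saturated phosphatidylcholine of surfactant, had 1234 CPM in navitoclax and 1327 CPM in vehicle AT2-like cells. Etv5 (chr16:22381309-22439719, minus strand), an ETS transcription factor downstream of fibroblast growth factor (FGF) signalling that helps keep mouse AT2 identity, had 427 CPM in navitoclax and 455 CPM in vehicle AT2-like cells. Each of these 3 was lower in the navitoclax library. Etv5 was also the most variable of the 10 from cell to cell. Its 95th percentile was 7.57 times its 5th in navitoclax and 8.30 times in vehicle AT2-like cells, against 1.87 and 2.08 times for Sftpc. Etv5 has the fewest UMIs of the 10, and a low count widens that spread.

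**Figure D1:**
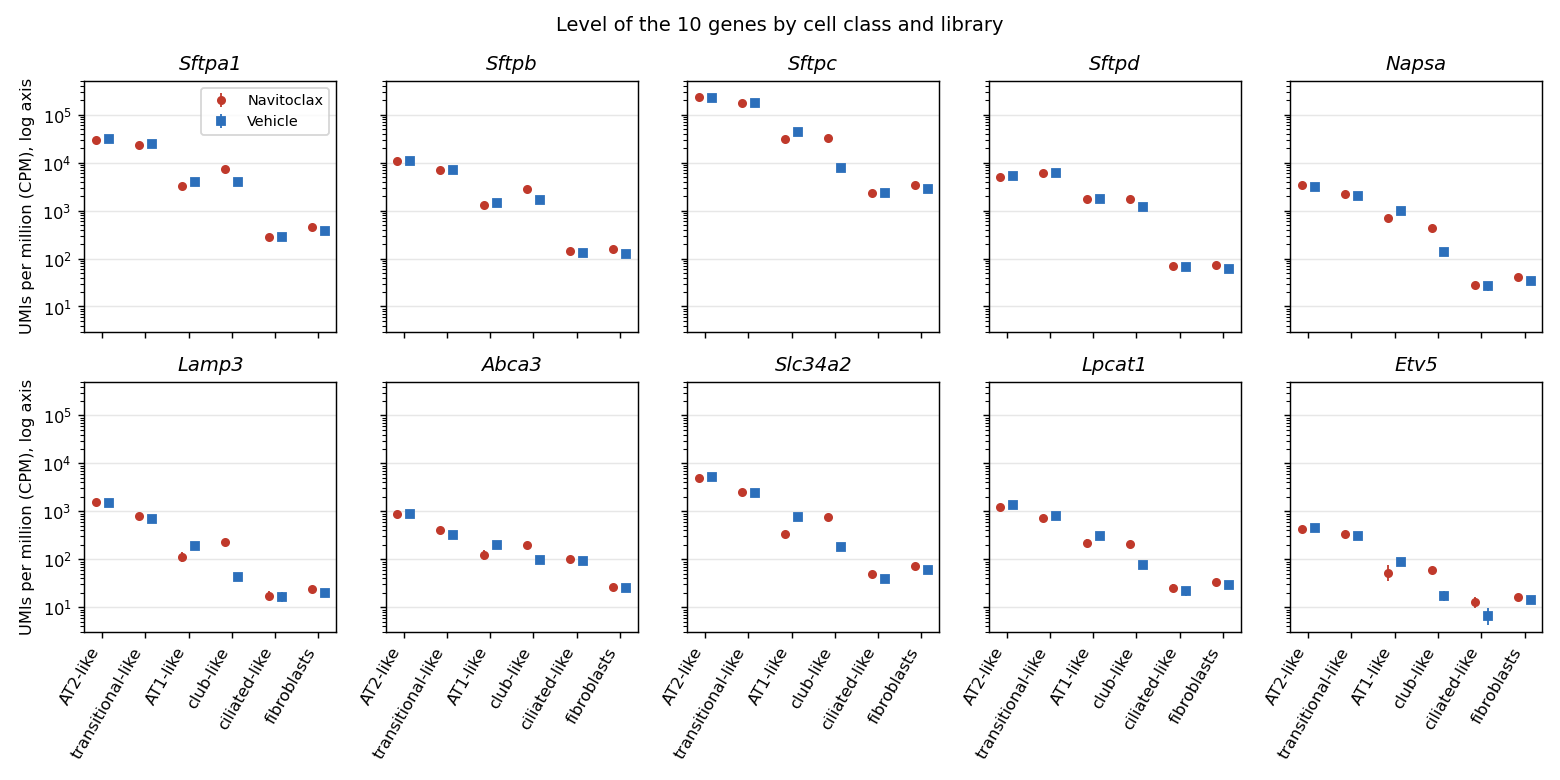
Level in CPM (log axis) of each of the 10 genes in 6 cell classes, with navitoclax as red circles and vehicle as blue squares and bars for the 95% counting interval. Levels were highest in AT2-like or transitional-like cells and lowest in ciliated-like cells and fibroblasts, where Sftpc was at 2279 CPM and 3334 CPM in the navitoclax library.

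The main comparison asked whether surfactant and lipid-export transcripts in AT2-like cells differed between navitoclax and vehicle after bleomycin. They differed little. Together the 10 genes made up 29.2% of AT2-like UMIs in the navitoclax library and 28.3% in the vehicle library, a ratio of 1.03 (interval 1.03 to 1.03). The fold limit was set at a CPM more than 25% higher or more than 20% lower in the navitoclax library. None of the 10 passed it in either direction, where 9.51% of the 10808 genes with at least 100 UMIs did, 4.92% higher and 4.59% lower. That share was not matched for UMI count, and counting error alone passes the limit more easily in genes with few UMIs. Etv5, the member with the fewest, had 13725 UMIs in navitoclax and 19534 in vehicle AT2-like cells. The median log2 ratio over the 10 was -0.02, the same as over all tested genes, with 5 genes above 0 and 5 below.

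Within that narrow range the members split by gene. Sftpc had a navitoclax over vehicle ratio of 1.05 (1.04 to 1.05), Napsa of 1.06 (1.06 to 1.07) and Lamp3 of 1.05 (1.03 to 1.06). Sftpb at 1.00 (0.998 to 1.01) and Abca3 at 1.02 (1.00 to 1.03) were nearly equal. On the lower side Lpcat1 had a ratio of 0.930 (0.918 to 0.942), Slc34a2 of 0.936 (0.930 to 0.942), Etv5 of 0.938 (0.918 to 0.959), Sftpa1 of 0.959 (0.957 to 0.962) and Sftpd of 0.973 (0.967 to 0.979). Most of these intervals leave out 1, but they hold no variation between animals or captures, from which the treatment cannot be told apart here. Sftpc alone decided the direction of the sum: without it the other 9 genes made up 5.75% of UMIs in navitoclax and 5.90% in vehicle AT2-like cells, a ratio of 0.974.

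The libraries were unequally spread over the clusters that make up the AT2-like class. Cluster 14 held 941 navitoclax cells and 55 vehicle cells, and cluster 13 held 148 navitoclax cells and 887 vehicle cells. Cluster 17 held 53 and 414 and cluster 18 held 107 and 310 navitoclax and vehicle cells. Even so the summed ratio was alike inside these clusters: 1.04 within cluster 13, 1.05 within cluster 14, 1.02 within cluster 17 and 1.02 within cluster 18. This did not hold for every AT2-like cluster. In cluster 25 the 10 genes summed to 235840 CPM in navitoclax and 207353 CPM in vehicle cells, a wider gap. In cluster 15 the AT2 list had the highest marker score, but the cluster was led by genes such as Ptgs2 and Areg and stayed unnamed, and it held 676 navitoclax cells and 111 vehicle cells. Its summed ratio was 1.03.

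**Figure D2:**
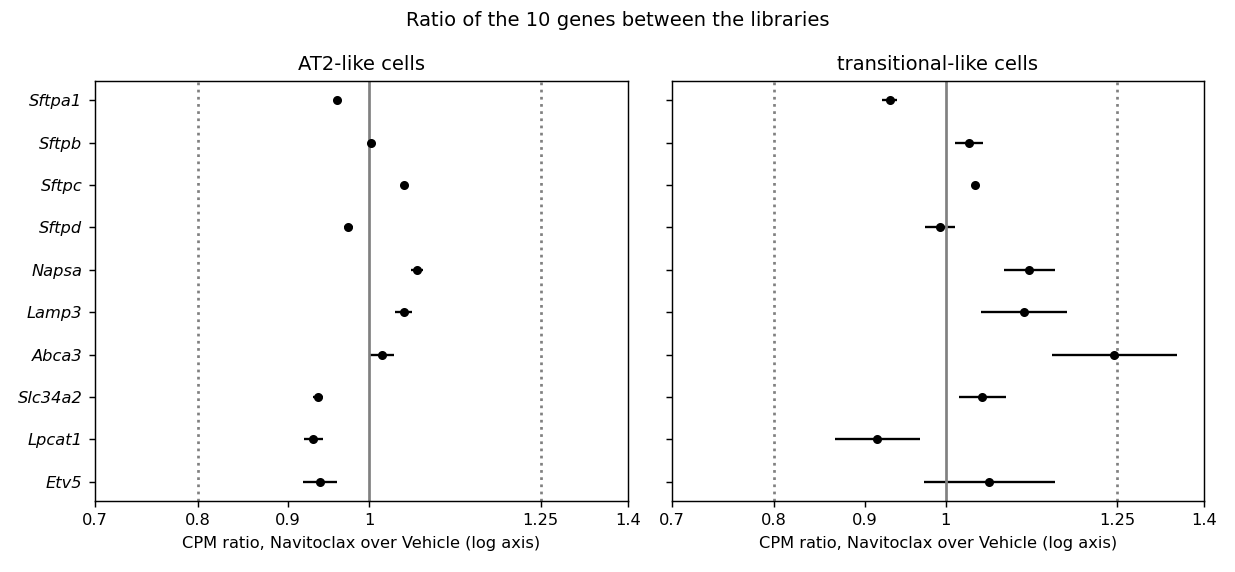
Ratio of CPM, navitoclax over vehicle (log axis), for each of the 10 genes in AT2-like cells (left) and transitional-like cells (right), with bars for the 95% counting interval and dotted lines at the fold limits, 25% higher and 20% lower. In AT2-like cells all points lie between 0.930 and 1.06, and in transitional-like cells Abca3, at 1.24, lies nearest to the dotted line.

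AT2-like clusters differed from each other by more than the libraries did. Over the 8 AT2-like clusters with at least 50 cells in each library, the highest over the lowest level of Sftpd was 1.61 in the navitoclax library and 1.69 in the vehicle library, and that of Etv5 was 1.13 and 1.27. Cluster 22 was highest in Sftpc, with 254447 CPM in the navitoclax and 241457 CPM in the vehicle library, and also in Sftpa1 and Sftpd in both. Cluster 25, whose median of 5474 UMIs per cell was the lowest of these clusters, was lowest in Sftpc, with 180874 CPM in the navitoclax and 156611 CPM in the vehicle library, yet highest in Abca3 and Lpcat1 in both. Cluster 30, led by mitosis genes such as Top2a and Mki67, gave 19.3% of its UMIs to the 10 genes in its 28 navitoclax cells and 15.8% in its 18 vehicle cells. The part of depth in these cluster differences was not tested.

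Over single AT2-like cells the collectin genes went together more than any other pair. The Spearman correlation of the Sftpa1 and Sftpd shares was 0.48 over 1588 navitoclax cells and 0.55 over 2390 vehicle cells. Sftpa1 and Sftpc had 0.35 and 0.40, and the lamellar body pair Lamp3 and Abca3 had 0.27 and 0.28. These are descriptions of sparse counts in cells that share a library and a depth. The shares were taken over each cell's UMIs other than those of the members. A divisor common to both genes of a pair can raise their correlation.

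Transitional-like cells are the cells of cluster 19, which had all 12 transitional markers at 20 CPM or more, where AT2-like cells had 9 of the 12. The markers summed to 5428 CPM in navitoclax and 5244 CPM in vehicle transitional-like cells, and to 805 and 901 CPM in AT2-like cells. With a gate on each cell's own markers, 144 cells of the class over both libraries came out as transitional, 144 as AT2 and 85 as no class, so the class is a mixture by that gate. In it the 10 genes still made up 22.1% of UMIs in the navitoclax library and 21.5% in the vehicle library. Sftpc had 177769 CPM in navitoclax and 171090 CPM in vehicle transitional-like cells. Against AT2-like cells of the same library, 9 of the 10 genes were past the same fold limit lower in the navitoclax library, where 12.7% of tested genes were, and 8 of the 10 in the vehicle library, where 15.8% were. The median gene stood at 116% of its AT2-like level in the navitoclax library and 114% in the vehicle library, so the members were low also relative to that shift.

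The size of the difference varied among the 10. Abca3, Lamp3 and Slc34a2 were lowest: Abca3 stood at 46.4% of its AT2-like level in the navitoclax library and 37.9% in the vehicle library, Lamp3 at 49.3% and 46.5%, and Slc34a2 at 52.2% and 46.6%. Lpcat1 stood at 59.4% and 60.4%, Napsa at 66.7% and 63.7%, and Sftpb at 67.0% and 65.2%. Sftpc, at 75.8% and 76.3%, Etv5, at 77.5% and 68.7%, and Sftpa1, at 78.3% and 80.9%, were nearer to their AT2-like levels. Each of these 3 stood above Abca3, Lamp3, Slc34a2 and Lpcat1 in both libraries. The number past the limit ran from 6 to 10 in the navitoclax library and from 7 to 9 in the vehicle library over other ways to class and scale the cells.

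Sftpd was the exception. It had 5956 CPM in navitoclax and 6001 CPM in vehicle transitional-like cells, which is 117% (115% to 118%) and 114% (113% to 116%) of its AT2-like level. That is about where the median gene stood, and it depended on how cells were classed: with a gate on each cell's own markers in place of clusters it stood at 74.7% in the navitoclax and 87.0% in the vehicle library. With CPM taken over UMIs other than the members and mitochondrial genes it stood at 104% and 102%.

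The transitional-like class also held cells with little Sftpc. Of transitional-like cells, 29 of 214 in the navitoclax library (13.6%, exact binomial interval 9.27% to 18.9%) and 33 of 168 in the vehicle library (19.6%, 13.9% to 26.5%) gave under 5% of their UMIs to Sftpc, a limit set after the values were seen. The median transitional-like cell gave 19.2% in the navitoclax and 18.6% in the vehicle library, and 4 and 7 cells lay between 4% and 6%. Of AT2-like cells, 19 of 1588 navitoclax cells (1.20%) and 16 of 2390 vehicle cells (0.669%) were under the limit. The intervals of the transitional-like shares treat cells as independent draws and hold no variation between animals or captures. Their overlap between the libraries is therefore no comparison of the treatments, and a difference was not tested.

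Between the libraries, none of the 10 genes passed the fold limit in transitional-like cells, where 16.8% of 6194 tested genes did, 8.22% higher and 8.62% lower. This share too was not matched for UMI count. Abca3 came nearest, with 406 CPM in the navitoclax and 326 CPM in the vehicle library, a ratio of 1.24 (1.15 to 1.35). After every cell was thinned to 2000 UMIs, 53.1% (46.1% to 59.9%) of 213 navitoclax cells and 28.3% (21.6% to 35.8%) of 166 vehicle cells had an Abca3 UMI, against 21.1% and 15.8% in ciliated-like cells, and the ratio of thinned levels was 1.64. Unthinned, 92.1% of navitoclax and 80.4% of vehicle transitional-like cells had one. Over other ways to class and scale the cells the ratio ran from 1.19 to 1.64, and it passed the fold limit in 10 of 14. Those that did not pass include a pseudocount of 1 CPM and a minimum of 100 UMIs, which could not change this ratio. Lpcat1 had the lowest ratio, 0.915 (0.866 to 0.967), and Sftpa1 stood at 0.929 (0.920 to 0.939). The median log2 ratio of the 10 was 0.06, against -0.01 over all tested genes, and the summed ratio was 1.03.

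**Figure D3:**
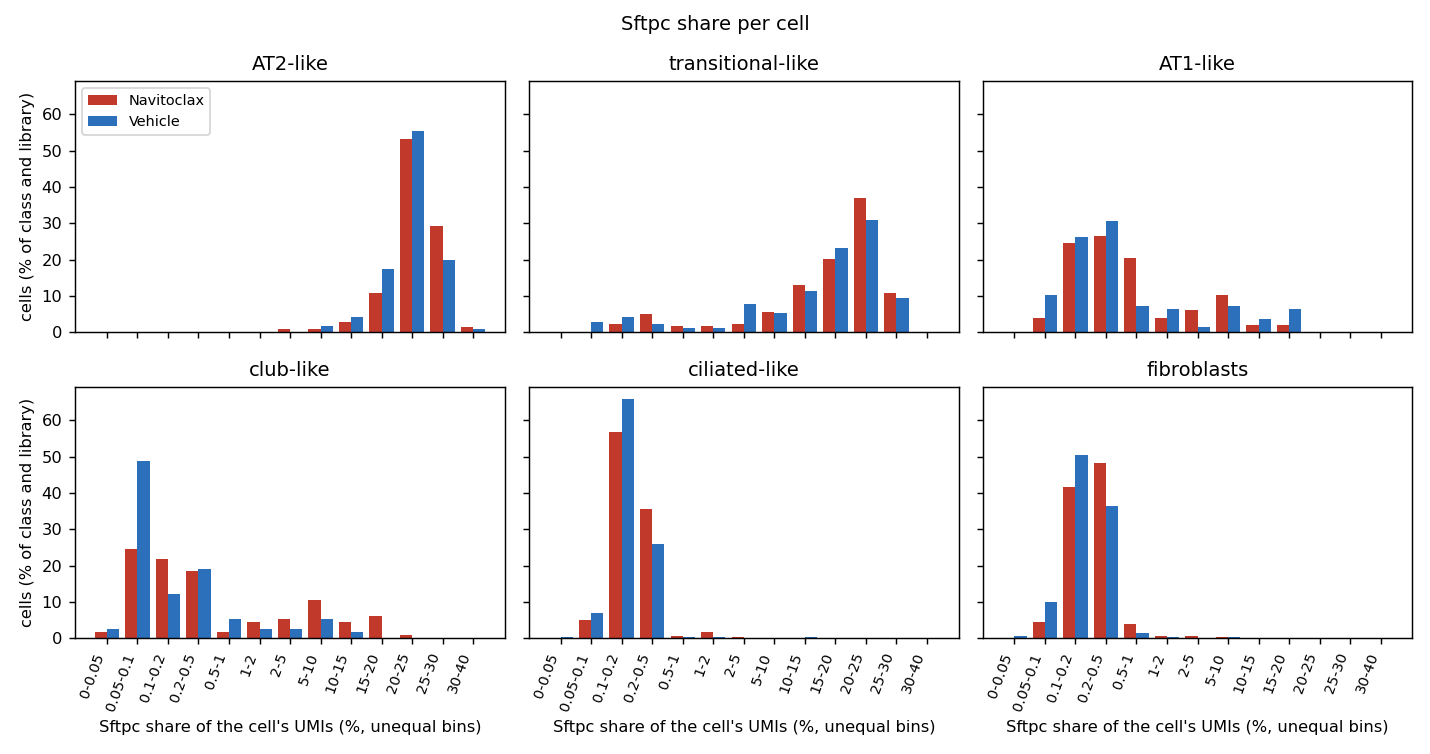
Share of each cell's UMIs taken by Sftpc (x axis, unequal bins in percent) against the percent of cells of that class and library (y axis), with navitoclax in red and vehicle in blue. AT2-like cells peak between 20% and 25%, transitional-like cells peak there too with a small group under 1%, and ciliated-like cells and fibroblasts lie almost all under 1%.

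Ciliated cells and fibroblasts are not known to make surfactant, so their levels were taken as the background of each library. Sftpc had 2279 CPM in navitoclax and 2278 CPM in vehicle ciliated-like cells, 0.972% and 1.02% of its AT2-like level. In fibroblasts it had 3334 CPM in the navitoclax and 2822 CPM in the vehicle library, 1.42% and 1.26% of the AT2-like level. Among smooth muscle or pericyte cells 2 of 42 navitoclax and 1 of 48 vehicle cells held 92.1% and 83.4% of the Sftpc UMIs, and this small class was not used as background. All ciliated-like cells of both libraries held at least 1 Sftpc UMI, at a median of 12577.5 UMIs per cell in navitoclax and 10197 in vehicle. A few surfactant UMIs in a cell are therefore not read as expression here.

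The fibroblast mean rested in part on a few cells. In the navitoclax library 11 of 2162 fibroblasts, and in the vehicle library 12 of 2641, gave 5% or more of their UMIs to Sftpc, and they carried 32.6% and 36.2% of the class's Sftpc UMIs. They remained after removal of called doublets. All 10 genes were higher in navitoclax fibroblasts, with a median log2 ratio of 0.23 against 0.00 over all genes, and 1 of them, Sftpb at 1.26, passed the fold limit, where 12% of tested genes did, 7.2% higher and 4.82% lower. In ciliated-like cells 0 of the 9 members with at least 100 UMIs passed, where 12.5% of tested genes did, 6.63% higher and 5.84% lower. The member under that minimum, Etv5, had 12.7 CPM in navitoclax and 6.55 CPM in vehicle ciliated-like cells, from 68 and 25 UMIs.

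Free RNA from 1 source holds its genes in the same ratio in every cell type, so each gene was also counted per 100 Sftpc UMIs. In fibroblasts Sftpa1 had 13.4 in the navitoclax and 13.1 in the vehicle library, close to 12.5 and 13.6 in AT2-like cells. Sftpb had 4.64 and 4.34 there, against 4.55 and 4.75 in AT2-like cells, and Slc34a2 had 2.17 and 2.13, against 2.07 and 2.32. In ciliated-like cells Sftpa1 was near the AT2-like ratio too, at 12.2 and 12.4, but several other genes were above it. Sftpb had 6.39 (5.94 to 6.88) in navitoclax and 5.73 (5.23 to 6.28) in vehicle ciliated-like cells. Sftpd had 3.12 (2.81 to 3.45) and 2.90 (2.54 to 3.28) there, against 2.18 and 2.34 in AT2-like cells, and Lpcat1 had 1.12 and 0.942, against 0.527 and 0.592. Abca3 was furthest from the AT2-like ratio. It had 4.51 (4.13 to 4.91) per 100 Sftpc UMIs in navitoclax and 4.03 (3.62 to 4.49) in vehicle ciliated-like cells, against 0.373 and 0.384 in AT2-like cells.

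Ciliated-like cells had 103 CPM of Abca3 in the navitoclax library and 91.9 CPM in the vehicle library, 11.7% and 10.7% of the AT2-like level, where the median member stood at 1.23% and 1.16%. After thinning, 21.1% (17.3% to 25.5%) of 402 navitoclax and 15.8% (12.1% to 20.0%) of 355 vehicle ciliated-like cells had an Abca3 UMI, against 3.89% of navitoclax and 4.61% of vehicle fibroblasts. The fibroblast shares lie below both ciliated-like intervals. Abca3, Lpcat1 and Etv5 also stood above the AT2-like ratio in fibroblasts, with 0.784, 1.02 and 0.490 per 100 Sftpc UMIs in the navitoclax library and 0.914, 1.03 and 0.508 in the vehicle library.

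Club-like cells, the secretory cells of the airway, fell into clusters 26 and 27. In cluster 26, led by Bpifa1, Scgb3a1 and Scgb1a1, Sftpa1 had 40.3 UMIs per 100 Sftpc UMIs in 59 navitoclax cells and 50.3 in 73 vehicle cells. Sftpb had 18.5 and 22.2, and Sftpd 13.5 and 15.4, each several times its AT2-like ratio. Napsa, at 1.60 and 1.75, and Lamp3, at 0.735 and 0.615, were close to the AT2-like ratios of 1.43 and 1.41 for Napsa and 0.680 and 0.680 for Lamp3. Abca3, at 1.06 and 1.20 against 0.373 and 0.384, and Lpcat1, at 0.854 and 0.944 against 0.527 and 0.592, stood above the AT2-like ratio there. The libraries differed in cluster 27. Its 55 navitoclax cells had 17.5 of Sftpa1, 6.14 of Sftpb and 3.28 of Sftpd, nearer to the AT2-like ratios, and its 42 vehicle cells had 49.7, 19.8 and 16.6. Over the whole class Sftpa1 had 22.7 in the navitoclax and 50.1 in the vehicle library.

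**Figure D4:**
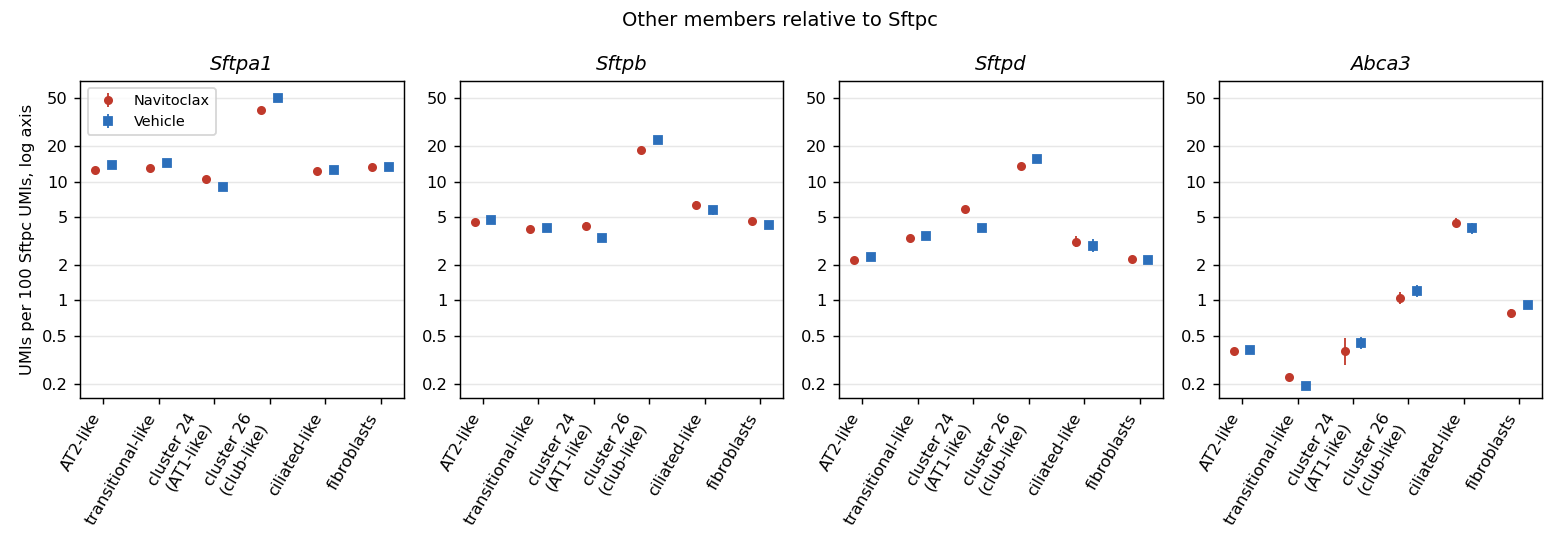
UMIs of Sftpa1, Sftpb, Sftpd and Abca3 per 100 Sftpc UMIs (log axis) in 4 classes and 2 clusters, with navitoclax as red circles, vehicle as blue squares and bars for the 95% counting interval. The first 3 genes are highest in club-like cluster 26, and Abca3 is highest in ciliated-like cells, at 4.51 and 4.03.

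In the club-like class Sftpc had 31738 CPM in the navitoclax and 7700 CPM in the vehicle library, with 12360 and 8399 CPM in cluster 26 and 58407 and 5914 CPM in cluster 27. A navitoclax over vehicle ratio in this class was not read. There 68.7% of tested genes passed the fold limit, 67.7% higher and 1.07% lower, and Scgb1a1, the main secretory product of club cells, had 407954 CPM in navitoclax and 561898 CPM in vehicle club-like cells. All 10 genes were among those past the limit higher. In this class, 25 of 114 navitoclax cells (21.9%) and 8 of 115 vehicle cells (6.96%) gave 5% or more of their UMIs to Sftpc. Those cells carried 92.9% and 80.9% of the class's Sftpc UMIs. Their share in each library moved with the level of all 10 genes, and its part in the result was not tested.

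AT1-like cells were few, 49 in the navitoclax and 137 in the vehicle library, and fell into 2 clusters. Cluster 24, with 44 navitoclax and 115 vehicle cells, had AT1 markers such as Rtkn2 and Hopx among its leading genes but scored higher for the transitional list than for the AT1 list. It had 32845 CPM of Sftpc in the navitoclax library and 50638 CPM in the vehicle library. Cluster 31, with 5 and 22 cells, had 2355 and 1635 CPM, near the level in ciliated-like cells. In the whole class 7 of 49 navitoclax and 24 of 137 vehicle cells gave 5% or more of their UMIs to Sftpc, and they carried 75.5% and 95.7% of its Sftpc UMIs, while the median cell gave 0.419% and 0.290%. The navitoclax over vehicle ratios of the 10 genes in AT1-like cells ran from 0.450 for Slc34a2 to 0.898 for Sftpb and 1.02 for Sftpd. No share over all genes was taken in this class, so these ratios are not read as a result about the members. These class means rest on those few cells, and the class was under the minimum of 100 cells per library set for comparing treatments.

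Sftpd in cluster 24 had 5.86 UMIs per 100 Sftpc UMIs in navitoclax and 4.03 in vehicle cells, against 2.18 and 2.34 in AT2-like cells and 3.35 and 3.51 in transitional-like cells. Relative to Sftpc it was higher than in AT2-like cells in both of these and in club-like cluster 26, but also in ciliated-like cells, a background class, at 3.12 and 2.90, close to the transitional-like values. Sftpa1 did not share this in cluster 24, with 10.5 and 9.03 against 12.5 and 13.6 in AT2-like cells.

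The pathway around the 10 genes was followed in 5 lists. Of 7 genes for precursor processing and associated secreted proteins, 0 passed the fold limit in AT2-like cells between the treatments. Sfta2, which encodes a secreted surfactant-associated protein, had 1338 CPM in navitoclax and 1240 CPM in vehicle cells. Of 20 tested genes of surfactant phospholipid synthesis, 0 were higher and 1 was lower past the fold limit. This was Pcyt1a, the rate-limiting enzyme of phosphatidylcholine synthesis, with 50.7 CPM in navitoclax and 66.5 CPM in vehicle cells, a ratio of 0.763 (0.718 to 0.811). Chka, the choline kinase of the same pathway, stood at 0.869 and Cds1, of phosphatidylglycerol synthesis, at 0.856. The list's median log2 ratio was 0.02, against -0.02 over all tested genes.

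Of 19 tested genes of lamellar body biogenesis, secretion and turnover, 0 passed the fold limit, and the median log2 ratio was -0.01. Among them the cholesterol transporter Abca1 stood at 1.18 and the AP-3 adaptor subunits Ap3b1 and Ap3d1, which sort cargo to lysosome-related organelles, at 0.856 and 0.837. Of 11 tested transcription factors of surfactant genes, 10 had a log2 ratio below 0, with a median of -0.10. Cebpa, a factor needed for AT2 maturation, had 231 CPM in navitoclax and 275 CPM in vehicle cells, a ratio of 0.839 (0.814 to 0.863), and Foxa2 stood at 0.904. The median of this list ran from -0.17 to 0.14 over other ways to class and scale the cells, turning positive within the smaller clusters 18 and 15, so its direction was not stable.

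Of 8 tested genes of FGF signalling around Etv5, 0 passed the fold limit in AT2-like cells, and 6 had a log2 ratio above 0, with a median of 0.10. The feedback phosphatase Dusp6 stood at 1.15 (1.07 to 1.24), the inhibitor Spred2 at 1.14 and the receptor Fgfr2 at 1.10, while Etv5 itself stood at 0.938. In transitional-like cells 3 of 7 passed the fold limit higher, where 8.22% of tested genes did. These were Dusp6 at 1.52 (1.21 to 1.92) from 246 navitoclax and 113 vehicle UMIs, Spred2 at 1.41 (0.979 to 2.07) and Fgfr2. Fgfr2 had 126 CPM in navitoclax and 101 CPM in vehicle cells. Its ratio of 1.253 (1.08 to 1.45) was only just past the limit. Of 11 tested transcription factors, 1 was past the fold limit lower in those cells, where 8.62% of tested genes were: Cebpa, at 0.775 (0.689 to 0.872). Of 15 tested lamellar body genes, 1 was past it higher, where 8.22% were: Abca1, at 1.26, with an interval that holds 1 (0.926 to 1.73). None of 6 precursor processing and 18 phospholipid synthesis genes passed there. The median of the FGF list in transitional-like cells was 0.26, against -0.01 over all tested genes, and stayed between 0.17 and 0.40 over the alternatives.

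Lipid synthesis genes were compared between the same classes. In the navitoclax library 12 of 20 tested phospholipid synthesis genes were past the fold limit lower in transitional-like than in AT2-like cells and 1, Chka, was higher, and in the vehicle library 13 of 20 were lower and 0 higher. Over all tested genes 38.6% were past it higher in the navitoclax library and 36.9% in the vehicle library, beside the shares lower given above. Fabp5, a fatty acid binding protein, stood at 16.9% of its AT2-like level in the navitoclax and 18.8% in the vehicle library, the fatty acid elongase Elovl1 at 29.1% and 28.0%, and the desaturase Scd1 at 40.1% and 42.0%. The list median was 67.0% and 75.6%, against 116% and 114% over all genes. Lamellar body genes went both ways, with 4 lower and 6 higher of 18 in the navitoclax library and 6 lower and 6 higher of 19 in the vehicle library. The median of that list was 113% and 105%, near the 116% and 114% over all genes. The small GTPase Rab27a stood at 35.2% and 30.1%, and the membrane-binding Anxa7 at 186% and 185%. Ctsh, a cathepsin that processes surfactant precursors, stood at 253% and 250%, the opposite of the protease Napsa.

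The genes most like the 10 in level over 9 classes and 2 libraries (18 points, Pearson correlation of log2 CPM with the mean of the 10) were Sfta2 at 0.97, Lyz2 and S100g at 0.97 each, Scd1, Egfl6, Mlc1 and Cxcl15 at 0.96 each, Chil1 at 0.95, and Rab27b and Lgi3 at 0.94 each, from 7431 genes. Of these, Lyz2, S100g, Egfl6, Cxcl15, Chil1 and Lgi3 are themselves markers that named the AT2-like class. Abca3 had the lowest correlation of the 10 with their mean, at 0.90, and Slc34a2 the highest, at 0.99. The points share libraries and free RNA, and the values are a description.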

How the data were processed

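Gene-by-cell tables of UMI counts were deposited, from Chromium 3′ libraries per the labels. The file headers name Cell Ranger 4.0.0, and the submitters' processing notes name mm10. The authors' counts are raw, and no aligner setting or filter beyond that is given in the sources used here. Barcodes under 500 genes or over 15% mitochondrial UMIs were left out. Doublets called by Scrublet (expected rate 6%) were removed, 205 of 6445 navitoclax barcodes (3.18%) and 222 of 7396 vehicle barcodes (3.00%). No background RNA was subtracted.

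Cells were clustered without the 10 genes (scanpy 1.11.5, leidenalg 0.10.2, 2000 variable genes, 30 components, 15 neighbours, resolution 1, epithelium clustered again) into 33 clusters. A class name needed at least 3 markers of its list at 20 CPM, a mean relative level of 0.35, and no other list with more of the leading genes. This scoring was set after the data were seen, and the 10 genes, markers and pathway lists were chosen with earlier results of these data known. Clusters that missed a criterion stayed unnamed, among them 3 clusters of 765 navitoclax and 282 vehicle cells in which AT2 was the highest list.

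The UMIs of each class in a library were added up and given as CPM, with exact Poisson intervals, conditional exact intervals for ratios and exact binomial (Clopper-Pearson) intervals for shares (scipy 1.17.1). A log2 ratio is log2((navitoclax CPM + 5)/(vehicle CPM + 5)). The fold limit (25% higher or 20% lower) was applied to a gene where both libraries together held at least 100 UMIs, and treatments were compared in classes of at least 100 cells per library. All 10 members are named, with up to 3 genes of each list that had the greatest absolute log2 ratio in AT2-like cells among those with 100 UMIs, and the 10 genes (at least 50 CPM in 1 class) most correlated with the members' mean over classes. List genes named within transitional-like cells or between them and AT2-like cells were chosen after their values were seen. A gene that this rule names is not reported here. For depth-matched shares each cell was thinned to 2000 UMIs, and shallower cells were left out. The summing and the fold call were tested on simulated data. Figures were drawn with matplotlib 3.10.9. Alternatives changed the clustering, filters, scaling, pseudocount, thinning and background.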

Additional observations from a re-analysis of the deposited data

Results flagged for a closer look

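Some members had opposite directions in different cell classes of the same 2 libraries, and the difference between the classes was not tested, since there is 1 library per treatment. The navitoclax over vehicle ratio of Sftpa1 was 0.959 in AT2-like cells and 0.929 in transitional-like cells, against 1.20 in fibroblasts, and that of Sftpd was 0.973 in AT2-like cells, against 1.22 in fibroblasts. Lpcat1 had 0.930 in AT2-like and 0.915 in transitional-like cells, against 1.18 in fibroblasts. Slc34a2 had 0.936 in AT2-like cells, against 1.05 in transitional-like cells, 1.24 in ciliated-like cells and 1.21 in fibroblasts. Etv5 had 0.938 in AT2-like cells, against 1.94 in ciliated-like cells, where it had 68 navitoclax and 25 vehicle UMIs. Fibroblasts and ciliated-like cells are the classes taken as background, with the median member at 1.50% and 1.23% of its AT2-like level in the navitoclax library and at 1.24% and 1.16% in the vehicle library.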

How the results depend on the processing

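No paired analysis was possible because there is 1 library per treatment. In AT2-like cells 0 members passed the fold limit under any of 18 alternatives, and the 180 member ratios lay between 0.843 and 1.09, with 25 on the other side of 1 from the value reported. These counts include a pseudocount of 1 CPM, which does not enter a CPM ratio, and a minimum of 100 UMIs, which every member met. Neither could change a member ratio or a fold call, so they are no check on them. The median log2 ratio in AT2-like cells (-0.0175) was -0.00127 with the members among the clustering genes, 0.000592 at resolution 2, -0.00609 with a mitochondrial limit of 30%, -0.00233 with doublets kept, 0.00231 with CPM over other UMIs (neither members nor mitochondrial), 0.00774 with median ratio scaling and -0.0562 within cluster 13. It was -0.00686 with the unnamed AT2-marker clusters added and -0.00801 within cluster 15, which were alternatives chosen after seeing the data. The summed ratio there (1.03) was 1.02839 with the members among the clustering genes, 1.03395 at resolution 0.5, 1.0241 with the per-cell gate, 1.02492 with the 30% limit, 1.03823 with doublets kept, 1.04504 over other UMIs, 1.04899 with median ratio scaling, 1.03321 as a mean of cell shares, 1.03252 thinned, 1.03752 within cluster 13, 1.0235 within cluster 18, 1.03299 with unnamed clusters added and 1.02909 within cluster 15.

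In transitional-like cells 11 of 140 member ratios under 14 alternatives passed the fold limit, and they ran from 0.785 to 1.64. Here too the pseudocount of 1 CPM and the minimum of 100 UMIs could not change a member ratio. The count of members higher was 1 in place of 0, Abca3 each time, with the members among the clustering genes, at resolutions 0.5 and 2, with the 30% limit, over other UMIs, with median ratio scaling, as a mean of cell shares, without the top cell of each member, with the ciliated-like level subtracted and thinned. The count lower was 1 (Sftpa1, 0.785) with the per-cell gate. The median log2 ratio (0.0617) was 0.179523 with the members among the clustering genes, 0.115478 at resolution 0.5, -0.079409 with the per-cell gate, 0.118814 with the 30% limit, 0.094617 with median ratio scaling, 0.12176 as a mean of cell shares and 0.097347 thinned. The summed ratio (1.03) was 1.10025 with the members among the clustering genes, 1.04962 and 1.04756 at resolutions 0.5 and 2, 0.893854 with the per-cell gate, 1.05376 with the 30% limit, 1.03311 with doublets kept, 1.03677 over other UMIs, 1.0495 with median ratio scaling, 1.04472 as a mean of cell shares, 1.03234 without the top cell and 1.04414 thinned. The cause of these shifts was not tested. A background taken from smooth muscle and mesothelial cells was not run, since they had under 100 cells per library. Depth limits Etv5, with 68 and 25 UMIs in ciliated-like cells, most.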
